A study of Mus musculus with 6 samples.

Results

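Sphingosine 1-phosphate (S1P) receptors and the genes that work with them in lymphocyte egress were examined in splenic B cells of mice. The set holds S1pr1, S1pr2, S1pr3 and S1pr4, the transcription factor gene Klf2, the oxysterol receptor gene Gpr183 and Cd69, and its members were chosen by gene symbol from the annotation of the array. Of these 7 genes, 6 had at least 1 probe (7 probes in all, among 25697 probes and 16110 named genes on the array), and Cd69 was not analysed here. RNA was hybridised to 6 single-colour Illumina bead arrays. The TRAF3KO group (n = 3 arrays) held premalignant splenic B cells labelled TRAF3-/-, and the Control group (n = 3 arrays) held normal splenic B cells, and the study asked which mechanisms are altered without TRAF3, a signalling adaptor that limits B cell survival. The strain, age and treatment of the mice, the allele that removed TRAF3, the cells in which it was removed and whether each array held a separate mouse are not stated in the labels. Each p-value reflects the spread between these arrays, which may be in part technical.

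S1P is a lipid that is abundant in blood and lymph and scarce inside lymphoid tissue, and lymphocytes read this gradient through G protein-coupled receptors. S1PR1 signals through inhibitory G proteins and draws lymphocytes towards the circulation, whereas S1PR2 couples to other G proteins and restrains migration. In the spleen, S1P receptors also hold marginal zone B cells beside the blood sinus, while GPR183 and the chemokine receptors CXCR5 and CCR7 position follicular B cells. KLF2 is a transcription factor of resting lymphocytes that maintains homing and egress genes, and CD69 binds S1PR1 and removes it from the cell surface.

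The arrays carried B cell RNA by their defining markers. Of 9 listed B cell markers 8 had a probe, all 8 passed the filter on dim probes and 0 of 8 were called. Their differences (TRAF3KO minus Control, log2) ran from -0.22 to 0.35. Cd79a read 15.98 ± 0.09 in TRAF3KO cells and 15.99 ± 0.02 in Control cells (log2 intensity, SD, n = 3). Both means lie near the highest value of the arrays, so their likeness says little about B cell content. The summed B cell marker intensity was 161847 to 170697 in TRAF3KO cells and 163735 to 169541 in Control cells. Erythroid markers, read on the same arrays, summed to 63031 to 77317 and 76734 to 80072. Traf3 itself was not analysed here, and the knockout is taken from the labels. Array medians lay between 5.350 and 5.358, and 31.3% to 31.4% of the probes of each array stood at the lowest deposited value, log2 0. The 40th percentile of an array, used as the limit of a measurable signal, lay at log2 3.95 to 3.97, and a gene was tested where its probe exceeded that limit on at least 3 of the 6 arrays. By Xist and Eif2s3y, TRAF3KO replicate 1 and Control replicates 1 and 3 came from male mice and the other 3 arrays from female mice.

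Of the members, 4 passed the filter, and 2 of these 4, S1pr4 and Klf2, were lower in TRAF3KO cells while 0 were higher, with groups that did not overlap in both. S1pr2 and Gpr183 were not called, and S1pr1 and S1pr3 were too dim on most arrays to be tested. Calls are Benjamini-Hochberg adjusted p-values under 0.05 from limma, fitted across all kept probes. The background of that fit was 457 of 10304 genes called (4.44%), 220 lower (2.14%) and 237 higher (2.3%), and groups did not overlap for 22.4% of all tested genes (11.4% with TRAF3KO cells lower). With 4 tested members the share called is coarse, and the members are described one by one.

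S1pr4, which encodes an S1P receptor found mainly on blood and lymphoid cells, had the largest change of the 4 tested members. Its probe read 10.32, 10.24 and 10.14 in TRAF3KO replicates 1, 2 and 3, against 11.22, 11.28 and 11.20 in Control replicates 1, 2 and 3 (log2 intensity). All 3 TRAF3KO arrays were low, below every Control array, and the gap exceeded the spread within either group. On the linear scale the intensity was 1131 to 1282 in TRAF3KO cells and 2346 to 2494 in Control cells. The group means were 10.24 ± 0.09 and 11.23 ± 0.05 in TRAF3KO and Control cells (SD, n = 3), a difference of -0.99 ± 0.09 (log2, SE, the form used for all differences), which is a ratio of 0.502 with a 95% interval of 0.438 to 0.575. The adjusted p was 1.5e-04 in limma, and S1pr4 stood at rank 23 of the 10304 tested genes by p. In bulk RNA, fewer cells of a type that carries a transcript and less of that transcript per cell cannot be told apart.

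The promoters of both called members are shown because these members moved in the same direction. RefSeq (GRCm38.p6) gave a promoter for 5 of the 7 members, and each line holds the 250 bases before the start of the gene, read 5′ to 3′ on the strand of the gene. Capitals mark matches to the motifs searched on both strands. These were CACCC (bound by KLF factors, and written GGGTG where it lies on the other strand), GTAAACA (FOXO) and the NF-kB consensus motif. A loose MEF2 pattern of 10 bases was also searched, which begins CTA, ends TAG and leaves the bases between them free.
Klf2 promoter, chr8:72318812-72319061, plus strand: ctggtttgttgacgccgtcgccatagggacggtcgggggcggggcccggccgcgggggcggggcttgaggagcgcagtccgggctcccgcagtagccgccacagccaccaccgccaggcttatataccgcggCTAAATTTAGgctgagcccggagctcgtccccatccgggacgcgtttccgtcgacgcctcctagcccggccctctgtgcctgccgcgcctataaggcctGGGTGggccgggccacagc
S1pr4 promoter, chr10:81500138-81500387, minus strand: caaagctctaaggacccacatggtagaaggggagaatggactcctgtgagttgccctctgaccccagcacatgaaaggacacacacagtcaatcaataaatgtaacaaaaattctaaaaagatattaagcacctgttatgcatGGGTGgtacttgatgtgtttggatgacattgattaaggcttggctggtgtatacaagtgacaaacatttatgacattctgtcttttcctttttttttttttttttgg
The Klf2 window held a MEF2 match, the 10 bases CTAAATTTAG beginning 118 bases before the start and reading the same on both strands, and 1 CACCC match that begins 19 bases before it. The S1pr4 window held 1 CACCC match, 107 bases before the start, and neither window had a match to the FOXO or NF-kB motif. A match to this loose MEF2 pattern occurred in 3.2% of the 32851 promoter windows in the RefSeq table. A CACCC match occurred in 52%, so that a CACCC match sets neither gene apart. Both windows differed in base composition, with 38.8% G and C in S1pr4 and 71.2% in Klf2. These matches describe the letters of the windows and are not evidence that a factor binds there.

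**Figure D1:**
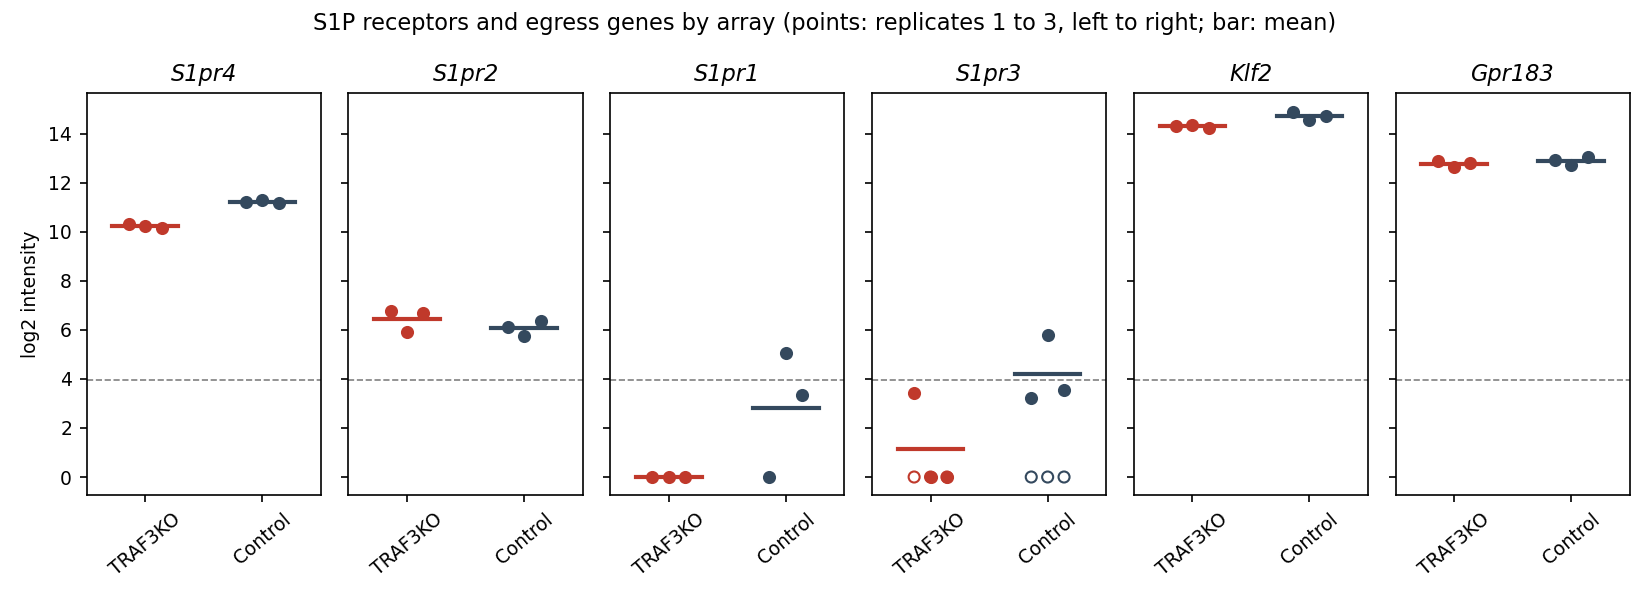
Log2 intensity (vertical axis) of the 6 members with a probe, in TRAF3KO (red, left) and Control (dark grey-blue, right) arrays, with 1 point per array, a bar at the mean and a dashed line at the mean 40th percentile; filled points are the brightest probe and open points the second S1pr3 probe. S1pr4 and Klf2 do not overlap between groups, Gpr183 and S1pr2 do, and S1pr1 lies at 0 on all 3 TRAF3KO arrays.

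Only 1 other S1P receptor among the members, S1pr2, could be tested, and it did not show a comparable fall. S1pr2, the receptor that restrains migration and confines germinal centre B cells, read 6.79, 5.90 and 6.69 in TRAF3KO replicates 1, 2 and 3, against 6.14, 5.74 and 6.37 in Control replicates 1, 2 and 3. The groups overlapped, with TRAF3KO replicate 2 below 2 of the 3 Control arrays. The difference was 0.38 ± 0.36 (adjusted p = 0.67, limma), and its 95% interval, -0.43 to 1.19, spans both a fall and a rise. Within each array the log2 ratio of S1pr4 to S1pr2 differed by -1.37 between TRAF3KO and Control cells and was lower on all 3 TRAF3KO arrays than on any Control array. An exact two-sided permutation test of this 1 receptor pair gave p = 0.1, the smallest value that this test allows with 3 against 3 arrays, so it cannot reach the 0.05 level here.

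S1pr1, the main egress receptor of lymphocytes, had 1 probe, which was listed at 0 in all 3 TRAF3KO replicates, against 0, 5.06 and 3.34 in Control replicates 1, 2 and 3 (log2 intensity). Only Control replicate 2 exceeded the 40th percentile of its array, so no fold is given. S1pr3, which marginal zone B cells and endothelial cells are known to express, had 2 probes. The brighter one read 3.42, 0 and 0 in TRAF3KO replicates 1, 2 and 3, against 3.23, 5.78 and 3.56 in Control replicates 1, 2 and 3, and the second was at 0 on all 6 arrays. Control replicate 2 was again the only array above the limit. When all probes were fitted without a filter, neither gene was called (limma adjusted p = 0.59 for S1pr1 and 0.57 for S1pr3). S1pr5, a further S1P receptor that is no member and was looked up after the other values were seen, was also dim: its brighter probe read 2.94, 5.26 and 4.38 in TRAF3KO replicates 1, 2 and 3, against 5.08, 0 and 4.54 in Control replicates 1, 2 and 3. That probe passed the filter and was not called (0.99 ± 1.54, limma adjusted p = 0.8). A change in S1pr1 or S1pr3 was therefore not detectable with these probes, and the values do not show that the transcripts were absent.

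Klf2, the transcription factor that maintains homing and egress genes in resting lymphocytes, fell by a smaller amount. Its probe read 14.31, 14.35 and 14.24 in TRAF3KO replicates 1, 2 and 3, against 14.90, 14.57 and 14.71 in Control replicates 1, 2 and 3. The TRAF3KO arrays lay close together, the Control arrays were more spread, and the groups did not overlap. The means were 14.30 ± 0.05 and 14.73 ± 0.17 in TRAF3KO and Control cells (SD, n = 3), a difference of -0.42 ± 0.08 (adjusted p = 0.016, limma) and a ratio of 0.745 with a 95% interval of 0.657 to 0.844. This call is close to the threshold: the adjusted p was 0.054 without Control replicate 1, 0.0555 without Control replicate 3, 0.053 without TRAF3KO replicate 1 and 0.053 without TRAF3KO replicate 3, with differences of -0.34, -0.43, -0.43 and -0.39. The adjusted p was 0.22 when dim probes were kept in the fit and 0.23 when the variance model had no trend, so that the call was lost in both.

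**Figure D2:**
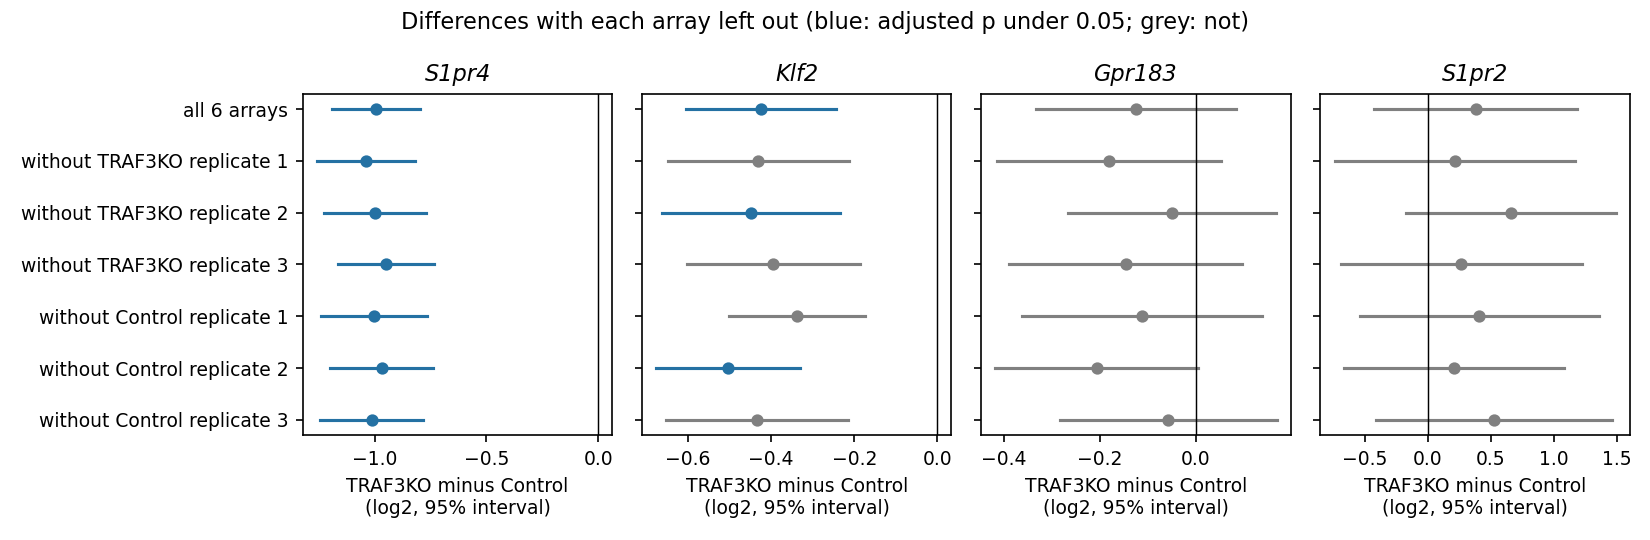
Difference between TRAF3KO and Control (horizontal axis, log2, with 95% interval) of the 4 tested members with all 6 arrays and with each array left out in turn; blue marks an adjusted p under 0.05 and grey any other. S1pr4 is called in all 7 fits at -1.04 to -0.95, Klf2 in 3 of them, and Gpr183 and S1pr2 in none.

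Gpr183, the receptor for oxysterols that guides activated B cells to the outer follicle, read 12.89, 12.63 and 12.82 in TRAF3KO replicates 1, 2 and 3, against 12.93, 12.74 and 13.04 in Control replicates 1, 2 and 3. The groups overlapped. The difference was -0.13 ± 0.09 (adjusted p = 0.57, limma), with a 95% interval of the ratio from 0.793 to 1.06, which leaves out a fall as large as that of S1pr4. Of 5 enzymes that make or break down its oxysterol ligands, 3 were tested, 1 was lower and 0 were higher, against 2.14% lower over all tested genes. The lower one was Cyp27a1, a mitochondrial sterol hydroxylase, at 11.01, 11.07 and 10.95 in TRAF3KO replicates 1, 2 and 3, against 11.70, 11.49 and 11.60 in Control replicates 1, 2 and 3. It fell by 0.59 ± 0.09 (adjusted p = 0.0032), and its other 2 kept probes fell by 0.50 and 0.60. Ch25h and Cyp7b1, the enzymes that make the principal ligand, were below the filter, and Hsd3b7, which breaks it down, differed by -0.32 ± 0.14 (adjusted p = 0.28).

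The genes around KLF2 included further decreases. Of 17 listed regulators, relatives and targets of KLF2 or FOXO1, 14 were tested, 3 were lower and 0 higher, with a median difference of -0.15, against 4.44% called and a median of 0.00 over all tested genes. Itgb7, the integrin chain that pairs with the alpha 4 chain for homing to the gut and a gene that depends on KLF2 in mouse lymphocytes, read 11.62, 11.74 and 11.91 in TRAF3KO replicates 1, 2 and 3, against 12.64, 12.53 and 12.74 in Control replicates 1, 2 and 3. It fell by 0.88 ± 0.09 (adjusted p = 4.2e-04, limma). Klf3, a repressor of the same zinc finger family, averaged 11.22 ± 0.08 in TRAF3KO cells and 11.79 ± 0.11 in Control cells (SD, n = 3) and fell by 0.57 ± 0.09 (adjusted p = 0.0039). Klf13 averaged 13.04 ± 0.05 in TRAF3KO cells and 13.61 ± 0.17 in Control cells (SD, n = 3) and fell by 0.58 ± 0.08 (adjusted p = 0.0034). These 3 calls held when any 1 array was omitted, and were lost with no filter on dim probes and with no trend in the variance model. The tested regulators of Klf2 were not called. Foxo1, a transcription factor that promotes Klf2 transcription in lymphocytes, differed by 0.08 ± 0.07 (adjusted p = 0.62, limma). Mef2c, of the MEF2 family, differed by -0.25 ± 0.08 (adjusted p = 0.14, limma). Mef2d, at 0 on 2 arrays, differed by 0.23 ± 2.09, which is too imprecise to show a change. Foxo3 was below the filter and Mef2a was not analysed here. Mapk7 and Map2k5, the kinases of the pathway that activates MEF2 factors, differed by 0.19 ± 0.58 and -0.05 ± 0.10 (adjusted p = 0.91 and 0.85). Ccr7 differed by -0.42 ± 0.17 (adjusted p = 0.26). Mef2c, Mef2d, Mef2a, Foxo3, Mapk7 and Map2k5 were named after the values were seen.

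**Figure D3:**
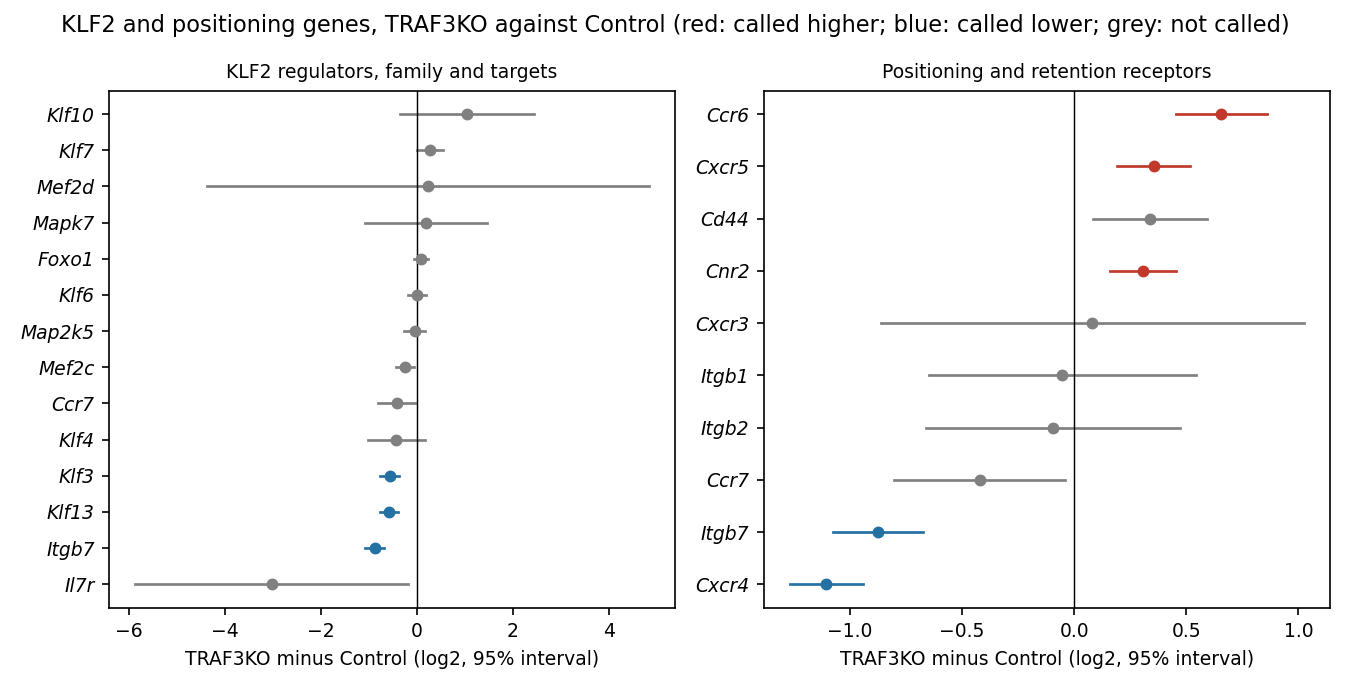
Differences between TRAF3KO and Control (horizontal axes, log2, with 95% interval) of the tested genes of the KLF2 list (left) and of the positioning receptor list (right), in red where called higher, blue where called lower and grey where not called. Itgb7, Klf3 and Klf13 are lower in the left panel; Cxcr4 and Itgb7 are lower and Ccr6, Cxcr5 and Cnr2 higher in the right panel.

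Listed receptors for the positioning, retention and homing of B cells moved in both directions. Of 14 listed positioning and retention receptors, 10 were tested, 3 were higher and 2 lower, with a median difference of 0.01. Over all tested genes 2.3% were called higher and 2.14% lower. Cxcr4, the receptor for CXCL12, read 11.91, 11.91 and 12.02 in TRAF3KO replicates 1, 2 and 3, against 13.10, 13.10 and 12.95 in Control replicates 1, 2 and 3, and fell by 1.10 ± 0.07 (adjusted p = 2.2e-05, limma). Itgb7, given above as an integrin chain for homing to the gut, was the other lower gene, and it also counts in the KLF2 and follicular lists. Ccr6, the receptor for CCL20, rose by 0.66 ± 0.09 (adjusted p = 0.0025) and Cxcr5, the follicle homing receptor, by 0.35 ± 0.07 (adjusted p = 0.024). A second probe of each gene was also called, at 0.48 for Ccr6 and 0.57 for Cxcr5. On its brightest probe Cxcr5 missed the threshold without Control replicate 1 or 2 or TRAF3KO replicate 1 or 3, with differences from 0.30 to 0.40 over the 6 omissions. Cnr2, the cannabinoid receptor that helps to retain B cells in the marginal zone and named here after its values were seen, read 12.44, 12.48 and 12.49 in TRAF3KO replicates 1, 2 and 3, against 12.12, 12.18 and 12.18 in Control replicates 1, 2 and 3. It rose by 0.31 ± 0.07 (adjusted p = 0.028), but missed the threshold when any 1 array was omitted (differences 0.29 to 0.32) and with inferred sex as a block.

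Genes that set the supply of S1P were not called. Of 13 listed kinases, phosphatases, transporters and carriers and the S1P lyase, 9 were tested, with a median difference of 0.07. By limma 0 were called at an adjusted p under 0.05, against 4.44% of all tested genes. At an unadjusted p under 0.05 the count was 2 of 9, against 16.9% of all tested genes. Sphk1, which makes S1P, read 4.21, 5.30 and 5.98 in TRAF3KO replicates 1, 2 and 3, against 5.24, 6.39 and 5.13 in Control replicates 1, 2 and 3, and differed by -0.42 ± 0.61 (adjusted p = 0.79). Without TRAF3KO replicate 1 its difference was 0.057, so that its direction rests on that array. Sgpl1, the lyase that destroys S1P, differed by 0.11 ± 0.10 (adjusted p = 0.64), and Abcc1, a transporter reported to export S1P, by 1.04 ± 0.47 (adjusted p = 0.31). The S1P exporter Spns2 was not analysed here, and the exporter Mfsd2b was below the filter.

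Of 31 genes that carry or end the signal of these receptors, 22 were tested, 1 was higher and 1 lower, with a median difference of -0.08. The share called over all tested genes was 2.3% higher and 2.14% lower. Rgs10, which speeds the shutdown of inhibitory G proteins, read 10.26, 10.42 and 10.38 in TRAF3KO replicates 1, 2 and 3, against 9.70, 9.49 and 8.96 in Control replicates 1, 2 and 3. It rose by 0.97 ± 0.17 (adjusted p = 0.0087, limma). Gna11, a G protein alpha subunit of the class that activates phospholipase C, averaged 9.67 ± 0.09 in TRAF3KO cells and 10.13 ± 0.08 in Control cells (SD, n = 3). It fell by 0.46 ± 0.10 (adjusted p = 0.034), but missed the threshold when any 1 array was omitted (differences -0.50 to -0.41) and with inferred sex as a block. Gnai2, the inhibitory subunit through which S1PR1 and S1PR4 signal, differed by -0.13 ± 0.09 (adjusted p = 0.53) and Gna13, the subunit through which S1PR2 restrains migration, by -0.11 ± 0.12 (adjusted p = 0.71). Arhgef1, a guanine nucleotide exchange factor downstream of Gna13, differed by -0.17 ± 0.08 (adjusted p = 0.29) on its brightest probe, and its other 2 kept probes gave 0.12 and -0.38, also not called.

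**Figure D4:**
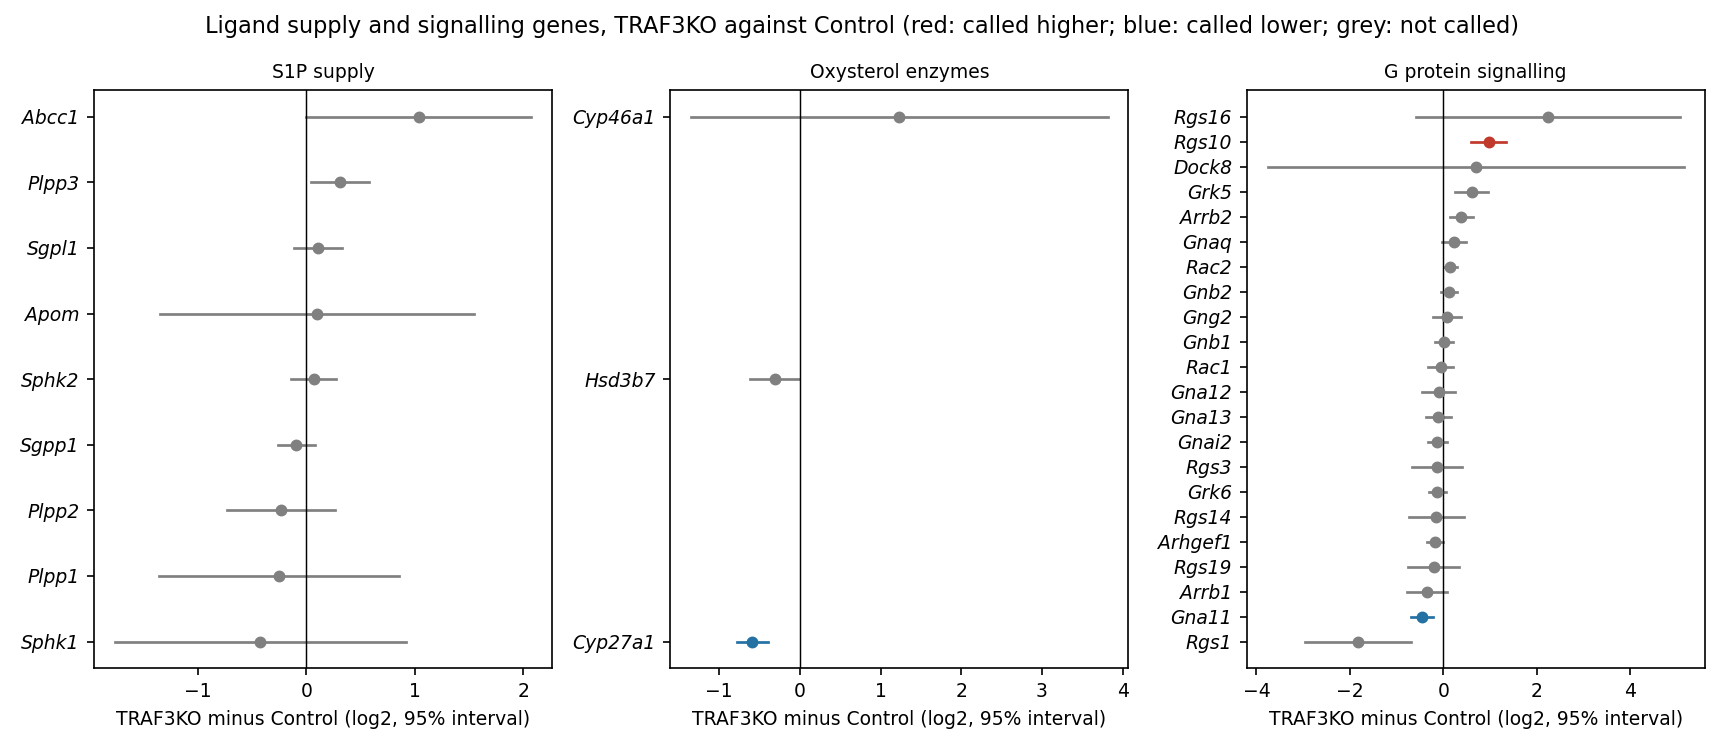
Differences between TRAF3KO and Control (horizontal axes, log2, with 95% interval) of the tested genes for S1P supply, for the oxysterol ligands of GPR183 and for G protein signalling, in red where called higher, blue where called lower and grey where not called. Cyp27a1 and Gna11 are lower and Rgs10 is higher, and the 9 S1P supply genes are all grey.

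The tested genes whose profiles over the 6 arrays lay nearest to those of the called members were found by the Euclidean distance between log2 values centred on each gene's mean. For S1pr4 these were Rapgefl1, Ripor2 and B3gnt8, at distances of 0.23, 0.23 and 0.25. Ripor2 read 10.20, 10.05 and 10.17 in TRAF3KO replicates 1, 2 and 3, against 10.94, 11.10 and 11.10 in Control replicates 1, 2 and 3. It fell by 0.91 ± 0.09 (adjusted p = 4.1e-04, limma), but its other 3 kept probes gave -0.26, -0.50 and 0.30 and were not called. B3gnt8, a glycosyltransferase, fell by 1.03 ± 0.09 (adjusted p = 1.3e-04), and Rapgefl1 differed by -0.88 ± 0.42 (adjusted p = 0.34). For Klf2 the nearest were Pde7a, Smpdl3a and Urm1, at distances of 0.084, 0.13 and 0.14. Pde7a, a phosphodiesterase that breaks down cyclic AMP, fell by 0.45 ± 0.10 (adjusted p = 0.029), and of the 6 omissions of 1 array it stayed called when Control replicate 2 was omitted and in none of the other 5 (differences -0.51 to -0.36), and it also missed the threshold with inferred sex as a block. Smpdl3a, a phosphodiesterase related to acid sphingomyelinase, fell by 0.47 ± 0.08 (adjusted p = 0.0099), a call lost without Control replicate 1, at a difference of -0.41. Urm1 differed by -0.34 ± 0.18 (adjusted p = 0.39). These genes were picked for their likeness, which gives the match no test.

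**Figure D5:**
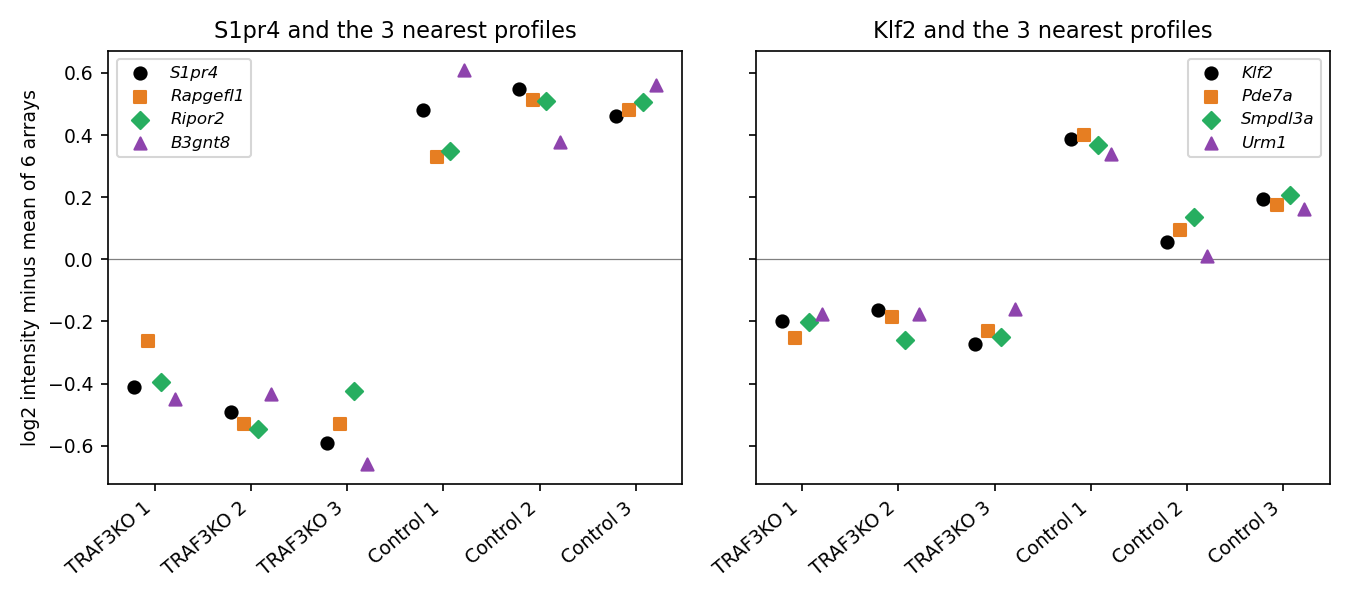
Log2 intensity minus the gene's mean over the 6 arrays (vertical axis), by array, for S1pr4 (left) and Klf2 (right) in black and the 3 tested genes with the nearest profile in colour. In both panels every point of the TRAF3KO arrays lies below every point of the Control arrays, and Control replicate 1 stands highest for Klf2 and its neighbours.

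Markers of B cell subsets and of other cells were read on the same arrays as S1pr4 and Klf2. Beside the marker counts, 2.3% of all tested genes were called higher and 2.14% lower. Of 9 marginal zone B cell markers, 8 were tested, 4 were higher and 0 lower, and their summed intensity was 71608 to 77149 in TRAF3KO cells and 61612 to 64431 in Control cells, of which Mzb1, not called, made up 79.5% to 84.0% over the 6 arrays. The 4 were Asb2 (1.95 ± 0.20), Cr2, the complement receptor CD21 (0.92 ± 0.18), Cd9 (0.70 ± 0.16) and Marcks (0.61 ± 0.08). Of 5 follicular B cell markers, 4 were tested, with Cxcr5 higher and Itgb7 lower, and their summed intensity of 33771 to 38824 in TRAF3KO cells lay within the 31873 to 41093 of Control cells. Cr2 missed the threshold without replicate 1 or 3 of either group, and Cd9 without Control replicate 1 or 3 or TRAF3KO replicate 1 or 2, and both missed it with inferred sex as a block. The part of B cell subsets in the differences of the members was not tested.

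T cell markers, of a cell type that uses KLF2, S1PR1 and S1PR4, had 0 of 5 tested genes called, a summed intensity of 106 to 208 in TRAF3KO cells and 178 to 267 in Control cells, and Cd8a and Lat at 0 on all 6 arrays. NK cell markers had 0 of 4 tested genes called, with summed intensities of 2756 to 3334 in TRAF3KO cells and 2518 to 3952 in Control cells and with Ncr1 and Eomes at 0 on all arrays. Endothelial markers had 0 of 2 tested genes called, at 5532 to 6482 in TRAF3KO cells and 6445 to 7609 in Control cells, and Cdh5 was at 0 on all arrays. Monocyte and macrophage markers had 2 of 7 tested genes lower (Lyz2 and C1qc) and 0 higher, at 1239 to 2110 in TRAF3KO cells and 1899 to 5277 in Control cells. The second kept probe of Lyz2 gave -1.44 ± 0.42 and was not called (limma adjusted p = 0.0998). Dendritic cell markers had Cst3 lower and Zbtb46 higher among 5 tested (Zbtb46 was at 0 on all 3 Control arrays and passed the filter through the TRAF3KO arrays alone), at 15307 to 17219 in TRAF3KO cells and 21976 to 25772 in Control cells, and Itgax was at 0 on all arrays. Lyz2 stayed called when Control replicate 2 was omitted and in none of the other 5 omissions, C1qc missed the threshold without Control replicate 1 or 3 or TRAF3KO replicate 2 or 3, and Zbtb46 without any 1 of the TRAF3KO replicates or with inferred sex as a block. Plasma cell markers had Sdc1 lower (-2.22 ± 0.21) and Xbp1 higher (0.48 ± 0.08) among 4 tested. Their sum was 11458 to 12584 in TRAF3KO cells and 9980 to 10590 in Control cells. Xbp1 alone made up 45.6% to 58.7% of it over the 6 arrays, so the higher sum does not stand for the plasma cell markers together. Neutrophil markers had 0 of 4 tested genes called, at 103.5 to 155 in TRAF3KO cells and 177 to 359 in Control cells, and megakaryocyte markers 0 of 3, at 198 to 265 in TRAF3KO cells and 230 to 296 in Control cells. S100a8, at 0 on 2 arrays, made up from 0.57% to 84.7% of the neutrophil sum over the 6 arrays, so that sum turns on 1 gene. Erythroid markers had Car2 lower among 5 tested, at 63031 to 77317 in TRAF3KO cells and 76734 to 80072 in Control cells. Car2 stayed called when Control replicate 1 was omitted and in none of the other 5 omissions. Single genes carried several of these sums over the 6 arrays: Cst3 97.9% to 99.4% of the dendritic cell sum, Pecam1 98.7% to 99.7% of the endothelial sum, Prf1 92.3% to 97.3% of the NK cell sum and Hba-a1 89.1% to 98.1% of the erythroid sum. The part of these cell types in the differences of S1pr4 and Klf2 was not tested.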

How the data were processed

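The authors deposited log2 intensities of 25697 probes on 6 Illumina bead arrays, per the labels and from the values themselves. The submitters' processing notes list BeadStudio 3.2.3. The background correction, the normalization and the source of the floor are not stated there or in the labels. The maximum was log2 16.15 on all 6 arrays, and quantile normalization left all 457 calls unchanged. The deposited arrays thus already had nearly the same distribution. All intensities under 1000 were multiples of 0.1 within 0.001. Arrays have no read depth, and their number limits the precision.

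The platform annotation gave 1 symbol to 23141 probes, and 2556 are unnamed here. A probe was kept where at least 3 arrays exceeded their own 40th percentile (15657 probes). The deposited values were fitted with limma 3.58.1 (lmFit; eBayes, trend on; R 4.3.3) on group alone, and p was adjusted over all kept probes. The brightest kept probe stood for a gene. The fit was also run on simulated data with independent noise for each probe, and no statement here rests on that run.

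The members, lists and tests were chosen with earlier results of these data known. Named genes were the members, up to 4 called genes of each list (or the 2 largest differences where none was called), 11 genes fixed by name, called markers and the 3 nearest profiles of each called member. Cnr2, Mef2c, Mef2d, Mef2a, Foxo3, Mapk7, Map2k5, Hsd3b7, Ch25h, Cyp7b1, Spns2, Mfsd2b, Cd79a, Hba-a1 and S1pr5 were named beyond that rule. Alternatives were other normalizations, filters, variance models, probe summaries, offsets, blocks and array weights, and leaving out each array.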

Additional observations from a re-analysis of the deposited data

How the results depend on the processing

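S1pr4 was called in all 13 alternatives and all 6 fits that left out 1 array, with differences from -1.04 to -0.95. Quantile normalization and centring on the median are among the alternatives of every gene. Both returned the same 457 calls as the main fit, because the deposited arrays already had nearly the same distribution. They are therefore no check on the calls. Klf2 was called in 11 of 13 alternatives, and its call was lost with no filter on dim probes and with no trend in the variance model (difference -0.42 in both), which left 1 member called lower in each. When 1 array was left out Klf2 was called in 2 of 6 fits, at differences from -0.50 to -0.34, and the members called lower numbered 1 to 2. Gpr183 (-0.21 to -0.05) and S1pr2 (0.21 to 0.66) kept their direction and were not called in any alternative, and S1pr2 did not pass the filter at the 60th percentile. The S1pr4 to S1pr2 ratio changed by -1.66 to -1.18 when 1 array was left out, where the exact permutation test cannot pass. Over all genes the 457 calls became 114 with no filter, 65 with no trend and 227 to 382 when 1 array was left out. Dim values limit S1pr1 and S1pr3, for which no difference is given. The difference of Sphk1 ranged from -0.83 to 0.057 when 1 array was left out. Of the other called genes named, Cxcr4, B3gnt8, Sdc1, Ripor2 and Zbtb46 were called both with no filter and with no trend, Cnr2 with no filter but not with no trend, and the rest in neither; Ripor2, Lyz2 and C1qc lost their calls with the mean of a gene's probes, Lyz2 and C1qc with the robust variance model, and Gna11, Cr2, Cd9, Zbtb46, Pde7a and Cnr2 with inferred sex as a block. The calls of Zbtb46 rest on Control values at the floor, which have no spread, and its difference fell from 6.63 to 1.55 with an offset of 50. Over the 35 other named genes, 561 of 660 values kept their direction and their side of the threshold, 98 lost the call and 1 turned direction. The 561 include the values from quantile normalization and median centring, which could hardly differ. They also include the values of named genes not called in the main fit, such as Foxo1, Gnai2 and Sgpl1, which had no call to lose. The share of 561 in 660 is therefore no measure of how steady the calls were. Deviations from the group mean correlated at 0.030 to 0.044 between same-numbered arrays of the groups and at -0.054 to 0.013 between other-numbered ones. All of these are weak, the same-numbered ones were the highest, and whether the replicate numbers pair the arrays was not tested. With the replicate block 468 genes were called, S1pr4 (-0.99) and Klf2 (-0.42) among them, while Gna11 (-0.46) was not. Beyond the losses named for single arrays, the causes were not tested.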
